A study of Xenopus laevis with 46 samples.

Results

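The acetyl marks on histone tails are written by acetyltransferases and removed by deacetylases. The transcripts of both classes were followed here in animal pole explants of *Xenopus laevis*, the prospective ectoderm cut from the roof of the blastula. All rows of the count files whose gene name was hdac with a number, *sirt1* to *sirt7*, *kat2* to *kat8* (with or without a or b), *ep300* or *crebbp*, followed by .L or .S, were taken. This gave 38 of the 49281 genes listed. The suffix names the homeolog: *X. laevis* is allotetraploid, and most of its genes have a copy on a long (L) and on a short (S) chromosome. Of the 38 copies, 25 encode deacetylases and 13 encode acetyltransferases, from 24 symbols, 14 of which had both copies. These classes were set by gene name. The deacetylases include the mitochondrial *sirt4* and *sirt5* and the tubulin deacetylase *hdac6*, so their counts and sums are not those of histone deacetylases alone. The deacetylases were 6 copies of class I (*hdac1.L*, *hdac1.S*, *hdac2.L*, *hdac2.S*, *hdac3.S* and *hdac8.L*), 8 of class IIa (both copies of *hdac4*, *hdac5*, *hdac7* and *hdac9*) and 2 of class IIb (*hdac6.L* and *hdac10.L*). To these came 9 sirtuins (*sirt1.L*, *sirt1.S*, *sirt2.S*, *sirt4.L*, *sirt5.L*, *sirt5.S*, *sirt6.L*, *sirt6.S* and *sirt7.L*). The acetyltransferases were 4 copies of the p300/CBP family (*ep300.L*, *ep300.S*, *crebbp.L* and *crebbp.S*), 3 of the GCN5/PCAF family (*kat2a.L*, *kat2a.S* and *kat2b.S*) and 6 of the MYST family (*kat5.L*, *kat6a.L*, *kat6a.S*, *kat7.L*, *kat7.S* and *kat8.L*). All 38 names were also found among the gene names of RefSeq. The names *sirt3.1.S* and *sirt3.2.L* fall outside the name rule.

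All explants were wild type, and RNA was sequenced from 46 libraries in 18 groups. TSA (trichostatin A) was applied from the 2-cell stage on, with a harvest at stage 9 (late blastula) or stage 13 (early neurula). Explants kept in DMSO over the same period were its vehicle control (2 libraries per group). IBET was given on the same schedule with vehicle explants of its own (2 libraries per group). In the remaining series embryos were injected with wnt/chd mRNA (Wnt8 and the BMP antagonist chordin, here Wnt/Chrd) or left uninjected, collected without inhibitor at stage 9, or given IBET or DMSO from stage 9 and collected at stages 13 and 17 (3 libraries per group). The labels call the injected explants neural crest-reprogrammed and the uninjected ones epidermal. They do not say whether libraries of a group came from separate clutches, so the p-values measure the spread between these libraries. A library pools explants whose number is not given in the sources used here.

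Acetylation of lysines loosens the hold of histones on DNA and makes a docking site for bromodomains. p300 and CBP are coactivators that acetylate histones at enhancers and promoters. GCN5 and PCAF (*kat2a* and *kat2b*) are the catalytic subunits of the SAGA and ATAC complexes. The MYST enzymes Tip60 (*kat5*), MOZ (*kat6a*), HBO1 (*kat7*) and MOF (*kat8*) work in complexes of their own, Tip60 mostly on H4 and H2A. The class I enzymes *hdac1* and *hdac2* are the catalytic core of the Sin3, NuRD and CoREST corepressors, *hdac3* that of NCoR/SMRT. The class IIa enzymes shuttle between nucleus and cytoplasm and bind MEF2 factors. These roles are known mostly from yeast and mammals. Sirtuins use NAD and are not targets of TSA, which blocks the zinc-dependent class I and II enzymes. IBET occupies the bromodomains of BET proteins, which read acetylated lysine. The prospective ectoderm is pluripotent at the blastula stage, becomes epidermis if left alone, and can be directed to neural crest by Wnt and chordin.

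The libraries held between 12902520 and 32022992 reads in genes. Levels are given as CPM, read counts scaled to a common library size, with TMM factors over all 46 libraries. Gene lengths were not used, so levels are compared between libraries and not between genes. Values of single libraries stand in the order of the letters (a, b, c) in the count files. Fold changes are from edgeR's quasi-likelihood test on the libraries of each comparison alone, on the log2 scale and followed by ± their standard error. These fits did not pair libraries by letter unless a block is named. A gene was called where its Benjamini-Hochberg adjusted p over all genes tested was under 0.05. Between 33 and 38 of the members passed the filter on low counts in a comparison. The labels were checked against marker lists in the vehicle explants. At stage 17 the 16 epidermis rows summed to 14700.0 to 26100.0 CPM in Wnt/Chrd against 36100.0 to 55300.0 CPM in uninjected explants. The 15 neural crest rows summed to 2440.0 to 3480.0 CPM in Wnt/Chrd against 99 to 174 CPM in uninjected explants. At stage 13 both lists overlapped between the vehicle groups, with epidermis rows at 5140.0 to 24400.0 CPM in Wnt/Chrd against 22700.0 to 38200.0 CPM and neural crest rows at 128 to 636 CPM against 94.5 to 170.0 CPM, so the markers did not set every Wnt/Chrd vehicle library apart from the uninjected ones. With inhibitors at stage 13 epidermis sums were 2040.0 to 2130.0 CPM (TSA) against 24300.0 to 25900.0 CPM (vehicle), 5020.0 to 5400.0 CPM (IBET from the 2-cell stage) against 20000.0 to 24800.0 CPM, and 1850.0 to 4000.0 CPM (IBET from stage 9) against 22700.0 to 38200.0 CPM. The 15 neural rows summed to 1400.0 to 1490.0 CPM with IBET from the 2-cell stage against 167 to 219 CPM. With TSA neural rows were at 512 to 545 CPM against 127 to 138 CPM, and the 15 mesoderm rows at 48.5 to 64.1 CPM against 3.02 to 3.81 CPM. With IBET from the 2-cell stage mesoderm rows were at 26.2 to 29.3 CPM against 95.4 to 109 CPM in vehicle. That vehicle group thus lay apart from the TSA vehicle and from uninjected vehicle explants (0.726 to 2.08 CPM) at stage 13. The 14 rows of maternal oocyte genes summed to 59.7 to 66.7 CPM with TSA against 47.5 to 54.9 CPM, to 83.1 to 87.7 CPM with IBET from the 2-cell stage against 50.3 to 52.6 CPM, and to 67.9 to 147 CPM with IBET from stage 9 in uninjected explants against 25.7 to 54.8 CPM. In bulk explants fewer cells of a type and less RNA per cell cannot be told apart, and the part of these marker changes in the results for the enzymes was not tested. The share of reads in genes was also lower with inhibitors at stage 13, at 64.7% ± 1.05 against 75% ± 0.44 for TSA and 62.1% ± 2.86 against 72.8% ± 1.11 for IBET in uninjected explants (SD).

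**Figure D1:**
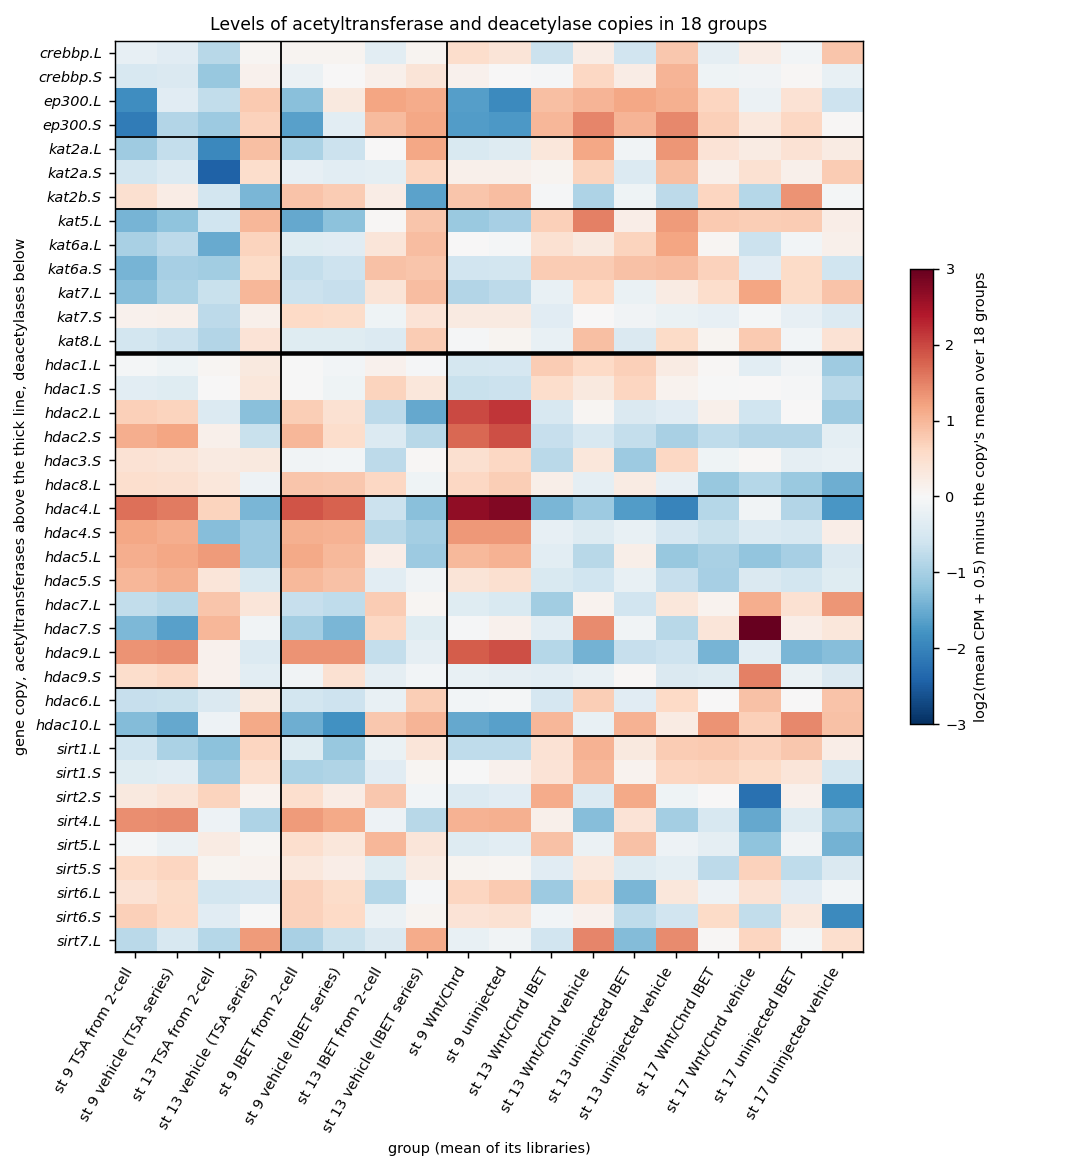
Level of each of the 38 copies in the 18 groups, as log2 of the mean CPM plus 0.5, centred on the mean of each copy (rows, by family; columns, the 3 series side by side, each in order of stage and with the inhibitor or Wnt/Chrd group left of its control). Colour gives the difference from the copy's mean on the log2 scale: all acetyltransferase rows but *kat2b.S* are lower in TSA than in vehicle explants at stage 13. The rows of *ep300* and *kat5.L* are low at stage 9, but for *ep300.L* in vehicle explants of the IBET series (93.7 and 117 CPM). Those of *hdac4*, *hdac5* and *hdac9.L* are high at stage 9. The darkest single cell is *hdac7.S* in Wnt/Chrd vehicle explants at stage 17.

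Between the groups with the highest and the lowest mean, 35 of the 38 copies differed by at least 3-fold, and the same number did when CPM was scaled by library totals. Among the acetyltransferases, *kat2a.L* averaged 5.98 ± 0.0828 CPM in TSA explants at stage 13, its lowest group, and 61.3 ± 10.9 CPM in uninjected vehicle explants at stage 13, its highest. The lowest and highest groups of *hdac4.L* were of different stages, with 1.33 ± 0.922 CPM in uninjected vehicle explants at stage 13 and 49 ± 9.35 CPM in uninjected explants at stage 9. The narrowest ranges were those of *kat7.S*, *hdac1.S* and *sirt5.S*, at 2.66, 2.79 and 2.88 times. Summed over copies, acetyltransferase transcripts came to 251 ± 10.5 CPM in TSA explants and 772 ± 3.82 CPM in vehicle explants at stage 13 (SD, n = 2 each), and deacetylase transcripts to 1258 ± 2.12 and 1518 ± 78.5 CPM. With IBET from the 2-cell stage the acetyltransferase sum was 721 ± 1.63 CPM against 905 ± 19.5 CPM in vehicle explants at stage 13, and the deacetylase sum 1555 ± 107 CPM against 1418 ± 18.4 CPM. The share of the members' reads that came from acetyltransferases was 16.6 ± 0.608% in TSA and 33.7 ± 1.27% in vehicle explants, and 31.7 ± 1.55% in IBET and 39 ± 0.212% in vehicle explants. These sums are a description: *hdac1* alone made up between 50.7% and 79.8% of the deacetylase CPM of a library. The direction of the deacetylase sum with TSA at stage 13 depended on the scaling. With library totals it was higher with TSA, at 1548 ± 48.8 CPM against 1226 ± 52.3 CPM in vehicle explants. The acetyltransferase sum was lower with TSA under both scalings, at 308.9 ± 3.82 CPM against 623.5 ± 8.98 CPM with library totals. Library c of the uninjected and injected series lay below libraries a and b in its acetyltransferase sum, for example 659 CPM in the uninjected vehicle group at stage 13, where the highest library had 1236 CPM.

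The course of the enzymes in explants that received no inhibitor was followed between the blastula and the neurula. At stage 13 against stage 9 the acetyltransferases were mostly higher and the deacetylases moved both ways. In the vehicle explants of the TSA series 11 of 13 acetyltransferase copies rose and 1 fell (median log2 fold change 1.14). Of 25 deacetylase copies 9 rose and 13 fell (median -0.54), where 78.0% of all genes tested were called and the median of all genes was -0.04. In those of the IBET series 10 acetyltransferases rose and 1 fell, and 7 deacetylases rose and 9 fell of 24 (73.6% of all genes called). In uninjected explants 9 and 1 acetyltransferases and 6 and 9 of 24 deacetylases were called (71.3% of all genes). For the change from stage 9 to 13 the shares of all genes higher and lower are not given, and the counts of members were not compared with them. The maternal oocyte rows moved with stage as well: 9 of 10, 9 of 11 and 10 of 12 tested rows fell in the IBET vehicle, TSA vehicle and uninjected series. Their sums at stage 13 were 50.3 to 52.6, 47.5 to 54.9 and 25.7 to 54.8 CPM, against 385 to 431, 400.0 to 436 and 679 to 766 CPM at stage 9, and their part in the stage changes of the enzymes was not tested. The direction of small changes depended on the scaling here: with library totals in place of TMM the median of all genes moved by -0.60, -0.74 and -0.85 log2 units in the IBET vehicle, TSA vehicle and uninjected series. Under totals 7 and 3, 7 and 2, and 4 and 2 acetyltransferases rose and fell in these series, and 4 and 16, 4 and 16, and 3 and 14 deacetylases did. Both copies of *hdac1* and of *crebbp* turned negative in the TSA vehicle series, as did *hdac1.L*, *hdac1.S*, *hdac6.L* and *kat2a.S* in uninjected explants and *hdac1.S* and *crebbp.S* in the IBET vehicle series.

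The stage 9 explants of the uninjected series had received neither vehicle nor inhibitor. The stage 13 libraries here are also the vehicle side of the comparisons of the inhibitors with vehicle. The p300 copies and Tip60 were among those that rose in all 3 series. In uninjected explants *ep300.L* had 203, 237 and 104 CPM at stage 13 against 25.5, 24.4 and 17.6 CPM at stage 9 (log2 fold change 3.06 ± 0.34, adjusted p = 0.00012), and *ep300.S* had 137, 150.3 and 61.6 CPM against 14, 13.7 and 9.97 CPM (log2 fold change 3.26 ± 0.36, adjusted p = 0.00013). No library of stage 13 reached down to those of stage 9. In the vehicle series, whose stage 9 libraries held more *ep300.L* (93.7 and 117 CPM in the IBET series and 60.9 and 75 CPM in the TSA series), the change of *ep300.L* was smaller, at 0.87 and 1.14. The Tip60 gene *kat5.L* had 77.1 and 83.5 CPM at stage 13 and 18.3 and 15.7 CPM at stage 9 in vehicle explants of the TSA series (log2 fold change 2.26 ± 0.14, adjusted p = 4.9e-06). In those of the IBET series it had 66.2 and 75.9 CPM against 15.5 and 17.9 CPM (log2 fold change 2.14 ± 0.16, adjusted p = 3.5e-05). In uninjected explants its change was 2.36. For *kat7.L*, which encodes HBO1, the vehicle explants of the TSA series had 23.2 and 22.9 CPM at stage 13 and 5.71 and 5.52 CPM at stage 9 (log2 fold change 2.05 ± 0.16, adjusted p = 1.9e-05). Its homeolog *kat7.S* was called in none of the 3 series (-0.07, 0.02 and -0.43). GCN5 rose with them: *kat2a.L* had 49.2 and 59.7 CPM at stage 13 against 13 and 17.8 CPM at stage 9 in the IBET vehicle series (log2 fold change 1.87 ± 0.20, adjusted p = 0.00017). In uninjected explants at stage 9 library b stood apart for *kat2a.L*, with 29.6 CPM where libraries a and c had 13.4 and 12 CPM, still below all stage 13 libraries.

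The PCAF gene *kat2b.S* was the exception among acetyltransferases and fell in all 3 series. It was a rare transcript: in the IBET vehicle series 1 read was counted over the stage 13 libraries against 101 reads at stage 9, a ratio of 0.0153 (exact 95% interval 0.000383 to 0.0871). Such intervals cover counting error only. In the other series *kat2b.S* had 0.248 and 0 CPM at stage 13 against 1.3 and 1.5 CPM at stage 9 (TSA vehicle, log2 fold change -3.35 ± 0.81, adjusted p = 0.0063), and it had 0.321, 0.286 and 0.726 CPM against 2.01, 2.26 and 3.48 CPM (uninjected, log2 fold change -2.49 ± 0.56, adjusted p = 0.0045). The stages did not overlap in any of the 3.

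Among deacetylases the deepest fall in each series was that of a class IIa gene. In uninjected explants *hdac4.L* had 0.534, 2.34 and 1.12 CPM at stage 13 against 51.3, 56.9 and 38.6 CPM at stage 9 (log2 fold change -5.14 ± 0.51, adjusted p = 7.6e-05). In the vehicle series it had 3.13 and 1.993 CPM against 25.9 and 22.9 CPM (IBET series, log2 fold change -3.20 ± 0.28, adjusted p = 6.5e-05), and 2.15 and 2.43 CPM against 22.1 and 19.6 CPM (TSA series, log2 fold change -3.17 ± 0.21, adjusted p = 6.5e-06). *hdac5.L* had 0.488 and 0.275 CPM against 3.09 and 3.31 CPM in the IBET vehicle series (log2 fold change -3.001 ± 0.49, adjusted p = 0.0013). It had 0.496 and 0.286 CPM against 4.24 and 3.14 CPM in the TSA vehicle series (log2 fold change -3.19 ± 0.44, adjusted p = 0.00033). At stage 13 these values rest on 11 and 18 reads. Of the *hdac9* copies, *hdac9.L* had 0.321, 0.457 and 0.528 CPM at stage 13 against 7.01, 1.07 and 6.67 CPM at stage 9 in uninjected explants (log2 fold change -3.43 ± 0.77, adjusted p = 0.0047), where library b at stage 9 lay far below a and c. *hdac9.S* was counted 2 times at stage 13 and 27 times at stage 9 in the TSA vehicle series (0.0414 and 0.0476 CPM against 0.713 and 0.383 CPM), a ratio of 0.0819 (0.00943 to 0.326). *hdac9.S* lost its call without stage 13 library a (adjusted p = 0.056). *hdac7*, also of class IIa, did not follow: *hdac7.L* rose in both vehicle series, by 0.92 in the IBET series and by 1.28 in the TSA series. Without stage 13 library a its call in the IBET series was lost (adjusted p = 0.051). The class I gene *hdac2* fell as well, *hdac2.S* to 1.18, 1.14 and 1.85 CPM at stage 13, against 12.5, 13 and 15.6 CPM at stage 9, in uninjected explants (log2 fold change -3.25 ± 0.34, adjusted p = 9.1e-05). In contrast *hdac1*, with which it shares complexes, was higher at stage 13 under TMM (0.80 and 0.79 for the L and S copies in uninjected explants). The strongest rise was that of the class IIb gene *hdac10.L*, to 54.1 and 54.2 CPM at stage 13, against 6.47 and 7.95 CPM at stage 9, in the IBET vehicle series (log2 fold change 2.96 ± 0.18, adjusted p = 1.5e-05), with 2.74 and 2.01 in the other series. Among sirtuins *sirt1.L* and *sirt7.L* rose in all 3 series (1.87, 1.79 and 1.58 for *sirt7.L*), and the mitochondrial *sirt4.L* fell in all 3 (-1.96, -2.38 and -2.07), in each case without overlap between stages.

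**Figure D2:**
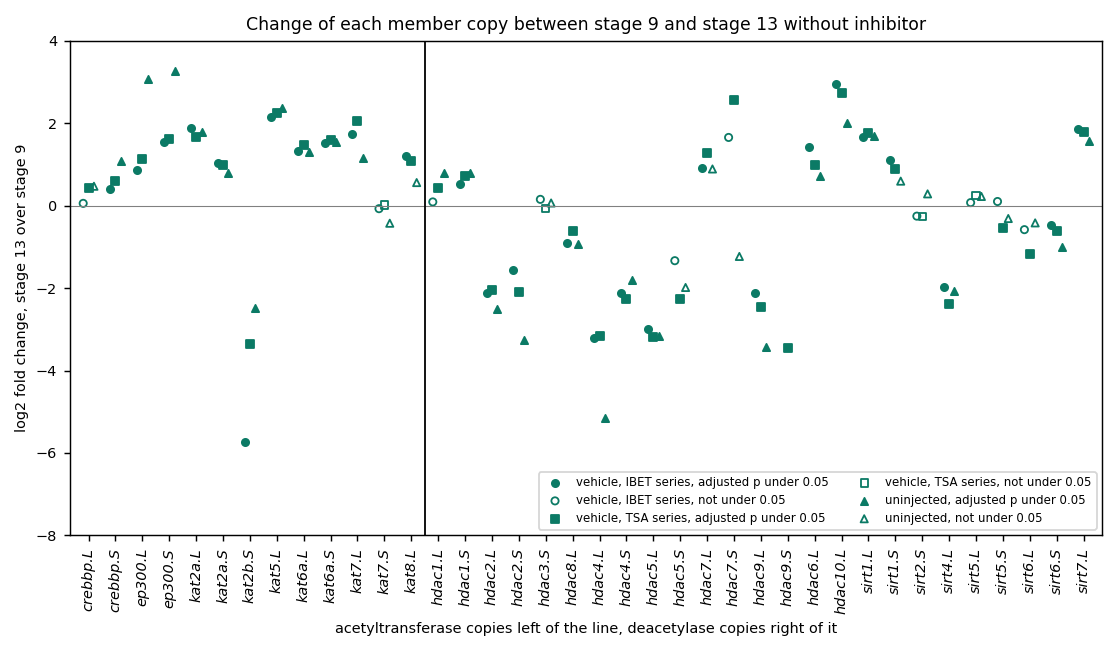
Change of each copy at stage 13 over stage 9 in the 3 series without inhibitor (log2 fold change, edgeR), acetyltransferases and deacetylases apart; filled points have an adjusted p under 0.05. The acetyltransferase points lie above 0 but for *kat2b.S* and 2 values of *kat7.S* (-0.07 and -0.43), and the deacetylase points spread to -5.14 (*hdac4.L*) on one side and 2.96 (*hdac10.L*) on the other.

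Between stages 13 and 17 nearly all members that were called in uninjected vehicle explants were lower at the later stage. The stage 17 libraries used here also serve as vehicle for IBET and as reference for Wnt/Chrd explants at stage 17. The results of these comparisons are therefore not independent. At stage 17 no acetyltransferase was higher and 5 were lower of 13 (*ep300.L*, *ep300.S*, *kat2a.L*, *kat5.L* and *kat6a.S*, median of the class -1.07). Of 21 deacetylases 1 was higher (*hdac7.L*) and 9 were lower (median -0.62), where 37.7% of all genes were called with a median of 0.02. The share of all genes that were lower is not given. The counts of members were not compared with those of all genes by a test. With the library letter as a block 5 members were higher and 18 lower (53.1% of all genes). Between 7 and 16 members were called when 1 library was left out: 7 without stage 17 library a, and 8 without stage 17 library c or stage 13 library b. *hdac1.L* had 178, 242 and 242 CPM at stage 17 against 474, 579 and 595 CPM at stage 13 (log2 fold change -1.35 ± 0.22, adjusted p = 0.0063), with all stage 17 libraries below all those of stage 13. For *ep300.L* the values were 45.8, 88.6 and 34 CPM against 203, 237 and 104 CPM (log2 fold change -1.74 ± 0.42, adjusted p = 0.017). *ep300.L* lost its call without stage 13 library b, stage 17 library a or stage 17 library c (adjusted p up to 0.079). *sirt6.S*, a nuclear deacetylase of H3, had 7.95, 6.67 and 7.54 CPM against 13.6, 22.9 and 22.1 CPM (log2 fold change -1.44 ± 0.29, adjusted p = 0.01). *sirt2.S*, mostly cytoplasmic, had 1.83, 9.37 and 3.35 CPM against 13.9, 24.9 and 11.5 CPM (log2 fold change -1.83 ± 0.60, adjusted p = 0.044). *sirt2.S* lost its call in 5 of 6 fits that left out 1 library, all but that without stage 17 library b (adjusted p up to 0.14). The stages overlapped for *ep300.S*, with 37.2, 65.2 and 29.6 CPM against 137, 150.3 and 61.6 CPM (log2 fold change -1.44 ± 0.40, adjusted p = 0.027), and for *kat6a.S*, with 29.1, 52.7 and 19.8 CPM against 112, 140.2 and 42.4 CPM (log2 fold change -1.58 ± 0.49, adjusted p = 0.037). Both calls were lost in 4 of 6 fits that left out 1 library, all but those without stage 13 library c or stage 17 library b (adjusted p up to 0.11 and 0.14).

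TSA and IBET were then compared with their vehicles. At stage 9 few members were called, and those called without a block were p300 genes. With TSA 2 of 13 acetyltransferases fell (*ep300.L* and *ep300.S*) and none of 25 deacetylases was called by edgeR (1 at an unadjusted p under 0.05, and none by DESeq2), where 2.02% of all genes were called. The class medians were -0.22 for acetyltransferases and -0.01 for deacetylases, against 0.01 for all genes. Without vehicle library b 1 member was called. With IBET 1 of 13 acetyltransferases fell (*ep300.L*), and none of 24 deacetylases was called by edgeR (1 at an unadjusted p under 0.05, none by DESeq2), where 2.37% of all genes were called. Without vehicle library a 2 members were called. With the library letter as a block 6 members were lower with TSA (also *kat2a.L*, *kat6a.L*, *kat6a.S* and *sirt7.L*, 13.5% of all genes called). With IBET that block called 1 higher (*sirt1.L*) and 3 lower (both *ep300* copies and *sirt7.L*, 12% of all genes). The test of the difference between the effects of IBET and TSA called no member (edgeR, none of 38, none at an unadjusted p under 0.05, none by DESeq2, 0.963% of all genes).

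By stage 13 the classes had parted in TSA explants. Of 13 acetyltransferases 12 were lower and 1 was higher (*kat2b.S*), with a median log2 fold change of -1.60. Of 24 deacetylases tested 9 were higher, 6 were lower and 9 were not called, with a median of 0.09. Of all genes 72.7% were called, 36.9% higher and 35.8% lower, with a median of 0.12. By family, all 4 p300/CBP copies, both *kat2a* copies and all 6 MYST copies were lower. Among deacetylases, 4 of 7 tested class IIa copies were higher (*hdac4.L*, *hdac5.L*, *hdac5.S* and *hdac7.S*), 3 of 6 class I copies were higher (*hdac2.L*, *hdac2.S* and *hdac8.L*) and *hdac1.S* was lower. Both class IIb copies were lower, and of 9 sirtuins 2 were higher (*sirt2.S* and *sirt4.L*) and 3 were lower (*sirt1.L*, *sirt1.S* and *sirt7.L*). The median of all genes moved by 0.60 with library totals in place of TMM. Under that scaling 1 acetyltransferase was higher and 11 were lower, and 15 deacetylases were higher and 4 lower. *hdac1.S* was then called in the other direction. When 1 library was left out between 22 and 28 members were called. Among the acetyltransferases 12 of 13 were thus lower where 35.8% of all genes were, and these counts were not compared by a test.

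At stage 13 fewer acetyltransferases were called with IBET from the 2-cell stage than with TSA. Of 13 acetyltransferases 7 were lower (*kat2a.L*, *kat2a.S*, *kat5.L*, *kat6a.L*, *kat7.L*, *kat7.S* and *kat8.L*) and *kat2b.S* was higher (median -0.53). Of 23 deacetylases 7 were higher and 5 lower (median 0.23), where 56.7% of all genes were called with a median of 0.03. The count of members called fell to 12 or 13 without IBET library b, IBET library a or vehicle library b, against 20. With library totals 1 and 6 acetyltransferases and 8 and 3 deacetylases were higher and lower. With IBET from stage 9 in uninjected explants at stage 13, 5 of 13 acetyltransferases were lower (*crebbp.L*, *kat2a.L*, *kat2a.S*, *kat5.L* and *kat8.L*) and none higher (median -0.44). Of 22 deacetylases 5 were higher and 4 lower (median 0.39), where 48.1% of all genes were called. For both IBET schedules the shares of all genes higher and lower are not given. The counts of members were not tested against those of all genes. Between 7 and 9 members were called without vehicle library a or b or IBET library b or c. With the same treatment in Wnt/Chrd explants at stage 13, none of 13 acetyltransferases was called by edgeR (3 at an unadjusted p under 0.05, none by DESeq2), and 2 of 22 deacetylases were lower (*hdac6.L* and *sirt7.L*), where 15.3% of all genes were called. There 1 library decided the count: without IBET library a 10 members were called, and without any other single library none or 1. With the library letter as a block 4 members were higher and 6 lower (30.4% of all genes). For *kat2a.L* library a of this group lay among the vehicle libraries, at 54.4 CPM beside 19.7 and 17.5 CPM in libraries b and c, whereas for *hdac6.L* it lay nearer to b and c, at 49.7 CPM beside 44.6 and 35.8 CPM. The effects of IBET in Wnt/Chrd and in uninjected explants at stage 13 were also compared by the test of their difference, which called no member (edgeR, none of 36, none at an unadjusted p under 0.05, none by DESeq2, 2.24% of all genes).

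**Figure D3:**
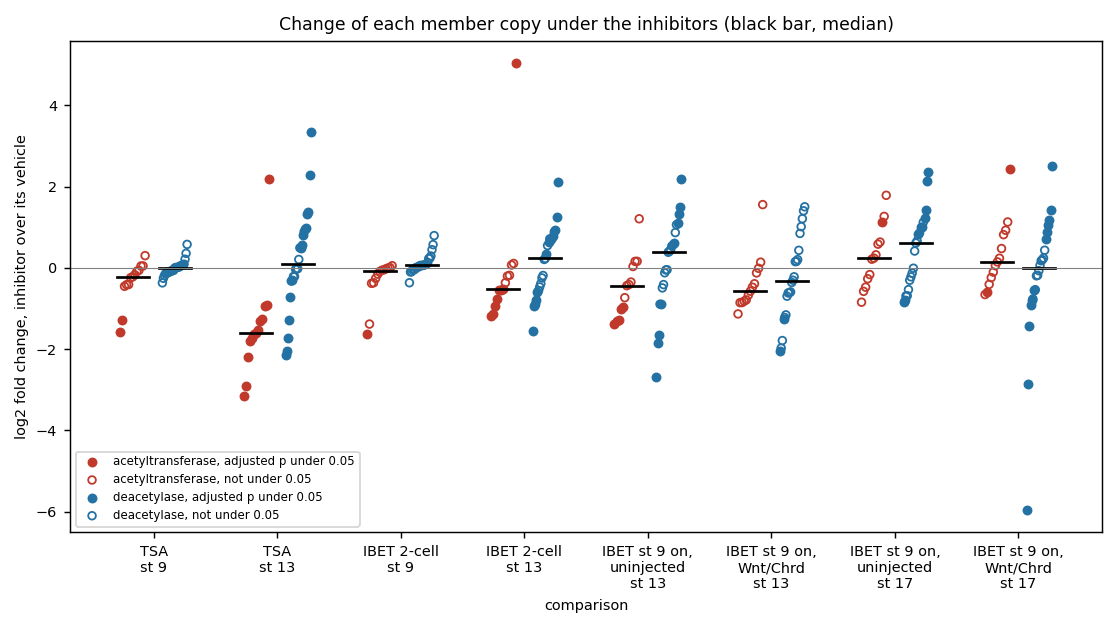
Change of each copy with TSA or IBET over its vehicle in 8 comparisons (log2 fold change, edgeR), acetyltransferases and deacetylases apart; filled points have an adjusted p under 0.05 and the black bar is the median of the class. In TSA explants at stage 13 the acetyltransferase median is -1.60 and the deacetylase median 0.09; at stage 17 the acetyltransferase medians with IBET are 0.24 (uninjected) and 0.14 (Wnt/Chrd).

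At stage 17 few acetyltransferases were called in the unpaired fits. With the library letter as a block both *ep300* copies passed the threshold in Wnt/Chrd explants (higher), and *crebbp.L* did in uninjected explants (lower). Their values are given with the p300/CBP genes, and the counts here are those without a block. In uninjected explants given IBET, 1 of 13 was higher (*ep300.L*) and none lower (median 0.24). Of 21 deacetylases 7 were higher and 2 lower (*hdac6.L* and *hdac7.L*; median 0.61), where 47.8% of all genes were called with a median of -0.01. The median of all genes moved by 0.16 with library totals, under which 4 and 0 acetyltransferases and 8 and 1 deacetylases were higher and lower. This count rested on single libraries: 2 members were called without vehicle library a, 4 without vehicle library c, 4 without IBET library c and 6 without IBET library b. The uninjected vehicle libraries of stage 17 are also those compared with stage 13 and with Wnt/Chrd explants. In Wnt/Chrd explants 1 acetyltransferase was higher (*kat2b.S*) and 1 lower (*kat7.L*) of 13. Of 22 deacetylases 6 were higher and 6 lower, where 50.1% of all genes were called. The count was 6, 7 and 9 members without vehicle library a, IBET library b and IBET library c. For IBET at stage 17 the shares of all genes higher and lower are not given, and the counts of members were not compared with them.

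Among the p300/CBP genes, *ep300* copies were called at the blastula stage and *crebbp* copies were not. *ep300.L* had 24.8 and 21.5 CPM in TSA explants against 60.9 and 75 CPM in vehicle explants at stage 9 (log2 fold change -1.59 ± 0.14, adjusted p = 0.015). It had 31.1 and 40.1 CPM in IBET explants against 93.7 and 117 CPM (log2 fold change -1.63 ± 0.17, adjusted p = 0.02), without overlap. Uninjected explants at stage 9, given neither vehicle nor inhibitor, had 25.5, 24.4 and 17.6 CPM of *ep300.L*. These lay below every vehicle library of both series, so the falls are relative to the vehicle of each series. The difference between the series was not tested. *ep300.S* had 9.42 and 9.69 CPM with TSA against 19.4 and 26.3 CPM in vehicle explants (log2 fold change -1.29 ± 0.18, adjusted p = 0.039). *ep300.S* lost its call without vehicle library b (adjusted p = 0.13). With IBET it had 12.9 and 14.2 CPM against 27.2 and 40.5 CPM, which missed the threshold (log2 fold change -1.39 ± 0.22, adjusted p = 0.055). The *crebbp* copies were not called at stage 9 with either inhibitor: *crebbp.L* had 44 and 32.9 CPM with TSA against 39.6 and 32.8 CPM in vehicle explants (log2 fold change 0.05 ± 0.18, adjusted p = 1.0), and 47 and 49.1 CPM with IBET against 52.3 and 43.5 CPM (log2 fold change -0.06 ± 0.14, adjusted p = 1.0). *crebbp.S* had 34.9 and 29.8 CPM against 35.6 and 31.2 CPM with TSA (log2 fold change -0.09 ± 0.14, adjusted p = 1.0) and 38.8 and 41.2 CPM against 48.3 and 43.3 CPM with IBET (log2 fold change -0.26 ± 0.12, adjusted p = 0.76). By stage 13 the inhibitors differed for both *ep300* copies (the test of that difference is given with the comparison of IBET and TSA). TSA explants had 54.9 and 47.1 CPM of *ep300.L* against 145 and 151 CPM (log2 fold change -1.52 ± 0.11, adjusted p = 1.1e-05). Of *ep300.S* they had 20.1 and 19.7 CPM against 62.4 and 76.4 CPM (log2 fold change -1.79 ± 0.14, adjusted p = 1.5e-05). The CBP copies were lower as well, *crebbp.L* at 26.8 and 24 CPM against 51.2 and 44.6 CPM (log2 fold change -0.90 ± 0.13, adjusted p = 0.00036). *crebbp.S* was at 21.8 and 18.9 CPM against 51.2 and 48 CPM (log2 fold change -1.27 ± 0.12, adjusted p = 5.0e-05). With IBET from the 2-cell stage *ep300.L* had 192 and 203 CPM against 183 and 189 CPM (log2 fold change 0.11 ± 0.12, adjusted p = 0.46), and every IBET library lay above every vehicle library.

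**Figure D4:**
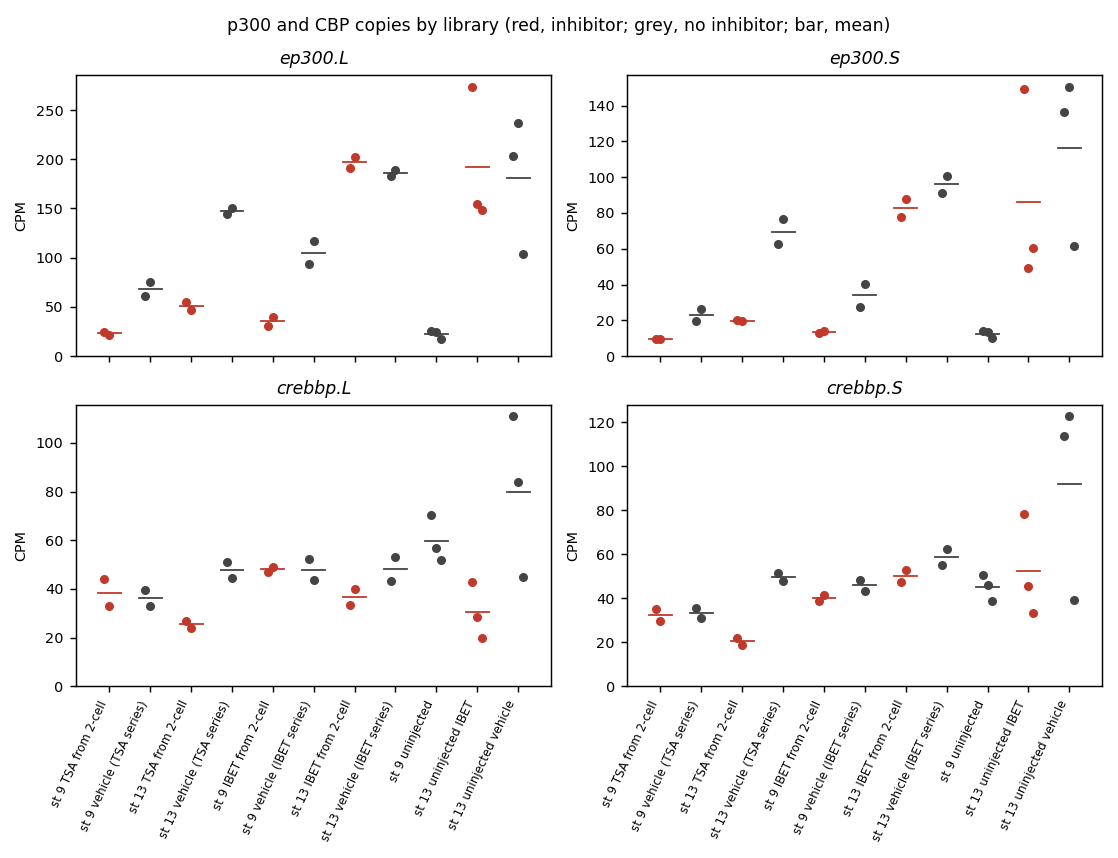
Level of *ep300.L*, *ep300.S*, *crebbp.L* and *crebbp.S* in each library of 11 groups (CPM, linear axis from 0; red points, inhibitor; grey points, no inhibitor; each group with inhibitor stands left of its control). Both *ep300* copies are below vehicle in all TSA and IBET libraries at stage 9 and in all TSA libraries at stage 13, while *ep300.L* with IBET at stage 13 is at 192 and 203 CPM beside 183 and 189 CPM in vehicle. The uninjected libraries at stage 9, without inhibitor, are also below the stage 9 vehicle libraries for both *ep300* copies (25.5, 24.4 and 17.6 CPM for *ep300.L*).

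The other p300/CBP copies were not called with IBET at stage 13. The values of *ep300.S* were 78 and 88 CPM against 91 and 101 CPM (log2 fold change -0.19 ± 0.14, adjusted p = 0.28). They were 33.3 and 40.1 CPM against 43.3 and 53.1 CPM for *crebbp.L* (log2 fold change -0.37 ± 0.17, adjusted p = 0.1), and 47.2 and 52.8 CPM against 54.9 and 62.3 CPM for *crebbp.S* (log2 fold change -0.20 ± 0.14, adjusted p = 0.26). *crebbp.L* was lower with IBET from stage 9 in uninjected explants at stage 13, with 43, 28.4 and 20.03 CPM against 111, 83.9 and 44.9 CPM (log2 fold change -1.31 ± 0.41, adjusted p = 0.028). *crebbp.L* lost its call in 4 of 6 fits that left out 1 library, all but those without vehicle library c or IBET library a (adjusted p up to 0.093). In Wnt/Chrd explants *crebbp.L* was at 38, 33.4 and 16.1 CPM against 80.9, 49 and 29.2 CPM (log2 fold change -0.86 ± 0.49, adjusted p = 0.24, and 0.045 with the library letter as a block), and its groups overlapped. The other copies of the family were not called there. *crebbp.S* had 78.2, 45.5 and 33.2 CPM against 114, 123 and 39.2 CPM in uninjected (-0.74) and 56.7, 53.4 and 21.2 CPM against 92.9, 82 and 34.4 CPM in Wnt/Chrd explants (-0.67). *ep300.L* had 273, 154 and 149 CPM against 203, 237 and 104 CPM in uninjected (0.16) and 189, 194 and 100.4 CPM against 179, 231 and 113 CPM in Wnt/Chrd explants (-0.13). *ep300.S* had 149, 49 and 60.7 CPM against 137, 150.3 and 61.6 CPM (-0.35) and 134, 75.5 and 44.4 CPM against 133, 150.2 and 72.1 CPM (-0.48), in the same order. Inhibitor and vehicle libraries overlapped for both *ep300* copies. At stage 17 *ep300.L* had 88, 149 and 114 CPM with IBET against 45.8, 88.6 and 34 CPM in uninjected explants (log2 fold change 1.12 ± 0.39, adjusted p = 0.045), with the groups overlapping. *ep300.L* lost its call in 4 of 6 fits that left out 1 library, all but those without vehicle library b or IBET library a (adjusted p up to 0.15). With IBET in Wnt/Chrd explants it had 121, 186 and 97.6 CPM against 55.6, 114 and 57.5 CPM (log2 fold change 0.92 ± 0.37, adjusted p = 0.068, and 0.0029 with the library letter as a block). *ep300.S* had 59.4, 68.9 and 68.6 CPM against 37.2, 65.2 and 29.6 CPM in uninjected explants (log2 fold change 0.63 ± 0.31, adjusted p = 0.13). It had 66.3, 94.3 and 48.9 CPM against 44, 72.5 and 43.5 CPM in Wnt/Chrd explants (log2 fold change 0.47 ± 0.32, adjusted p = 0.25, and 0.042 with the library letter as a block). The CBP copies lay lower or near vehicle at this stage: *crebbp.L* had 47.1, 52.6 and 30.2 CPM against 96.8, 103 and 43.6 CPM in uninjected (log2 fold change -0.85 ± 0.36, adjusted p = 0.088, and 0.023 with the library letter as a block). It had 41.5, 49.5 and 22.8 CPM against 51.9, 73.5 and 34.4 CPM in Wnt/Chrd explants (log2 fold change -0.41 ± 0.37, adjusted p = 0.38). *crebbp.S* had 50.0, 54 and 33.8 CPM against 44.5, 52 and 18.7 CPM in uninjected (0.32) and 39.9, 60.5 and 22.7 CPM against 40.5, 59.7 and 25.8 CPM in Wnt/Chrd explants (0.05), none of them called. The spread between the 3 libraries of each group was wide for this family, since library c lay low at stage 13 and library b high at stage 17 for *ep300.L* in vehicle explants of both backgrounds.

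The GCN5 gene *kat2a* showed the deepest falls of any member in TSA explants at stage 13. *kat2a.L* had 6.04 and 5.92 CPM against 45.7 and 45.6 CPM in vehicle explants (log2 fold change -2.92 ± 0.14, adjusted p = 1.4e-06). *kat2a.S* had 2.51 and 2.65 CPM against 25.2 and 20.9 CPM (log2 fold change -3.15 ± 0.19, adjusted p = 4.7e-06). These were below the stage 9 level of the same series, where *kat2a.L* had 15 and 14.1 CPM in vehicle and 11.9 and 10.6 CPM in TSA explants (this difference between stages was not tested). With IBET from the 2-cell stage *kat2a.L* had 27.6 and 21.2 CPM against 49.2 and 59.7 CPM (log2 fold change -1.14 ± 0.19, adjusted p = 0.003). With IBET from stage 9 in uninjected explants it had 29.2, 22.4 and 15.5 CPM against 56, 73.8 and 54 CPM (log2 fold change -1.39 ± 0.32, adjusted p = 0.0084). There *kat2a.S* had 13.9, 8.92 and 12.5 CPM against 32.1, 24.1 and 33.9 CPM (log2 fold change -1.27 ± 0.30, adjusted p = 0.0093). No group overlapped its vehicle. At stage 17 neither copy was called with IBET in either background (0.24 and 0.23 for *kat2a.L*). PCAF went the other way. *kat2b.S* was counted 45 times in IBET explants and 1 time in vehicle explants at stage 13, a ratio of 39.3 (exact 95% interval 6.71 to 1590.0), with 1.47 and 1.29 CPM against 0.0697 and 0 CPM. TSA explants had 0.655 and 0.555 CPM against 0.248 and 0 CPM, from 27 and 6 reads (log2 fold change 2.18 ± 0.85, adjusted p = 0.047). With TSA *kat2b.S* lost its call in 3 of 4 fits that left out 1 library, all but that without vehicle library a (adjusted p up to 0.18). Wnt/Chrd explants at stage 17 had 2.44, 2.06 and 1.66 CPM with IBET against 0.439, 0.181 and 0.584 CPM (log2 fold change 2.43 ± 0.50, adjusted p = 0.0049), all higher than every vehicle library. The levels of *kat2b.S* with IBET at stage 13 lay between those of vehicle explants at stage 13 and at stage 9 (2.2 and 2.32 CPM). The maternal oocyte rows of these groups did so too, and their part in the levels of *kat2b.S* was not tested.

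All 6 MYST copies were lower with TSA at stage 13. *kat6a.L*, which encodes MOZ, had 27.3 and 27.7 CPM against 131 and 121 CPM (log2 fold change -2.19 ± 0.11, adjusted p = 1.8e-06). *kat6a.S* was lower by 1.62 on the log2 scale. The other falls were -1.73 for *kat7.L*, -1.60 for *kat5.L*, -1.32 for *kat8.L* and -0.94 for *kat7.S*. With IBET from the 2-cell stage the MOF gene *kat8.L* fell most, to 14.7 and 10.2 CPM against 28.4 and 28.8 CPM (log2 fold change -1.18 ± 0.22, adjusted p = 0.0046), followed by *kat5.L* (-0.77), while *kat6a.S* was at 0.07 and not called. IBET from stage 9 gave -1.01 for *kat5.L* and -0.96 for *kat8.L* in uninjected explants at stage 13, both called. The calls of *kat5.L* and *kat8.L* in uninjected explants were each lost in 4 of 6 fits that left out 1 library. For *kat5.L* these were all but those without vehicle library a or IBET library a, and for *kat8.L* all but those without vehicle library c or IBET library a (adjusted p up to 0.08 and 0.082). At stage 17 the single call among the MYST genes was that of *kat7.L* in Wnt/Chrd explants, with 18.7, 14.8 and 15.9 CPM against 24.4, 31 and 23.3 CPM (log2 fold change -0.59 ± 0.21, adjusted p = 0.047). *kat7.L* lost its call in 5 of 6 fits that left out 1 library, all but that without IBET library a (adjusted p up to 0.16). At stage 13 explants with IBET from the 2-cell stage had 108 and 96.8 CPM of *kat6a.L* against 151 and 148 CPM in vehicle explants (log2 fold change -0.53 ± 0.13, adjusted p = 0.013). *kat6a.L* lost its call without IBET library b (adjusted p = 0.079).

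**Figure D5:**
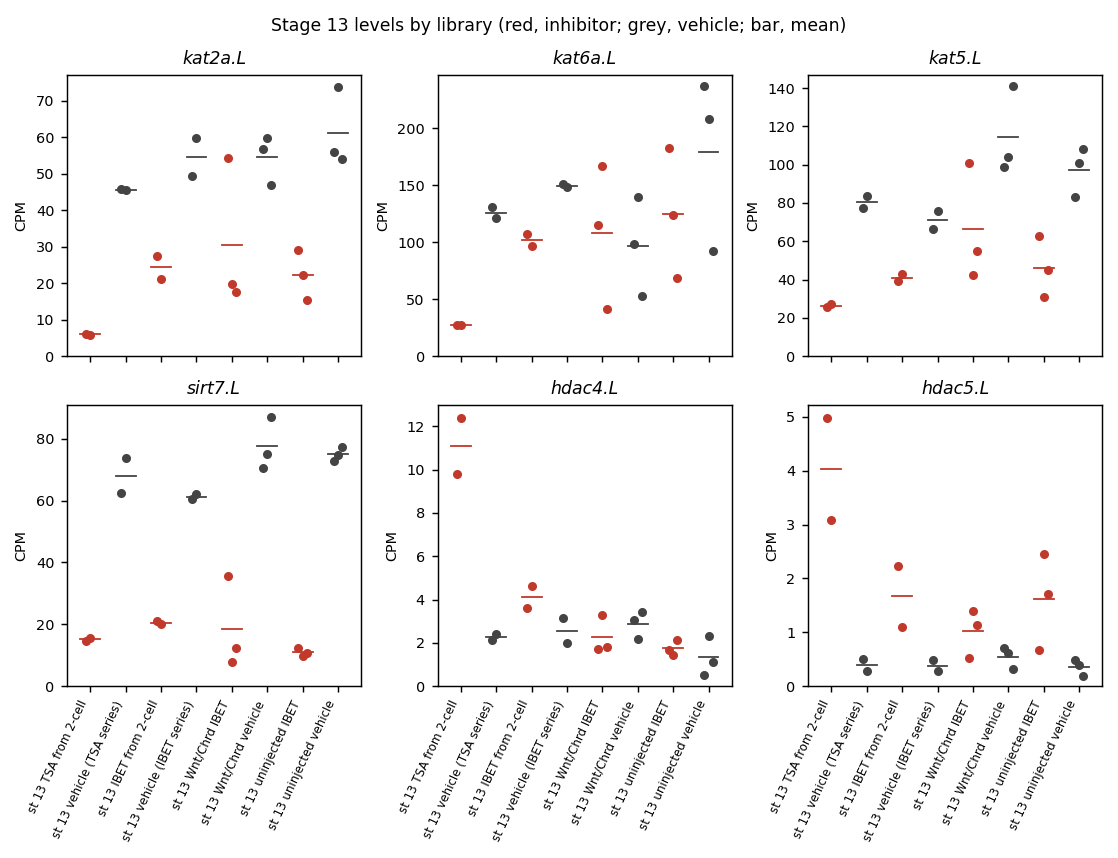
Level of 6 members in each library of the 8 groups at stage 13 (CPM, linear axis from 0; red points, inhibitor; grey points, vehicle; each inhibitor group left of its vehicle). *kat2a.L*, *kat6a.L* and *kat5.L* are lowest and *hdac4.L* and *hdac5.L* highest in the TSA libraries, *sirt7.L* is below every vehicle library in all 10 libraries with an inhibitor, and for *kat2a.L* the highest Wnt/Chrd IBET library lies among the vehicle libraries.

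Of the class I deacetylases, *hdac1* was called with small changes only or not at all before stage 17. At stage 9 *hdac1.L* had 436 and 447 CPM with TSA against 415 and 436 CPM (log2 fold change 0.02 ± 0.05, adjusted p = 1.0). It had 437 and 485 CPM with IBET against 409 and 465 CPM (log2 fold change 0.01 ± 0.10, adjusted p = 1.0). *hdac1.S* had 316 and 322 CPM with TSA against 297 and 321 CPM, and 361 and 432 CPM with IBET against 342 and 386 CPM. At stage 13 *hdac1.L* had 480.5 and 486 CPM with TSA against 532 and 598 CPM (log2 fold change -0.22 ± 0.10, adjusted p = 0.093). *hdac1.S* had 411 and 393 CPM against 484 and 516 CPM (log2 fold change -0.30 ± 0.10, adjusted p = 0.02). *hdac1.S* lost its call in 3 of 4 fits that left out 1 library, all but that without vehicle library a (adjusted p up to 0.11). With library totals its sign turned (0.29, adjusted p = 0.014), as did that of *hdac1.L* (0.38, adjusted p = 0.0062). With IBET *hdac1.S* was higher, at 598 and 664 CPM against 494 and 512 CPM (log2 fold change 0.35 ± 0.11, adjusted p = 0.035). *hdac1.S* lost its call in each of the 4 fits that left out 1 library (adjusted p up to 0.15). The *hdac1.L* values were 477 and 544 CPM against 439.6 and 459 CPM (log2 fold change 0.21 ± 0.12, adjusted p = 0.17). In uninjected explants with IBET from stage 9, *hdac1.S* had 685, 608 and 565 CPM against 379.8, 468 and 426 CPM at stage 13 (log2 fold change 0.61 ± 0.22, adjusted p = 0.044). *hdac1.S* lost its call in each of the 6 fits that left out 1 library (adjusted p up to 0.15). At stage 17 *hdac1.L* had 496, 406 and 395 CPM with IBET against 178, 242 and 242 CPM (log2 fold change 1.01 ± 0.25, adjusted p = 0.012) and was above vehicle in every library. *hdac1.S* had 422, 422 and 323 CPM against 187, 286 and 204 CPM (log2 fold change 0.83 ± 0.27, adjusted p = 0.035). *hdac1.S* lost its call in 5 of 6 fits that left out 1 library, all but that without vehicle library b (adjusted p up to 0.12). *hdac1.L* in uninjected explants at stage 13 had 858, 678 and 743 CPM against 474, 579 and 595 CPM (log2 fold change 0.53 ± 0.22, adjusted p = 0.073). Neither copy was called in Wnt/Chrd explants. There *hdac1.L* had 817, 757 and 779 CPM against 663, 649.5 and 782 CPM at stage 13 (0.15) and 582, 412 and 434 CPM against 349, 366 and 404 CPM at stage 17 (0.43). *hdac1.S* had 564, 622 and 522 CPM against 498, 491 and 477 CPM at stage 13 (0.20) and 449, 404 and 328 CPM against 417, 426 and 361 CPM at stage 17 (0.06).

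*hdac2* was higher with TSA at stage 13: *hdac2.L* had 6.7 and 6.73 CPM against 2.85 and 4.09 CPM (log2 fold change 0.96 ± 0.26, adjusted p = 0.0098), and *hdac2.S* had 3.24 and 4.07 CPM against 1.78 and 1.91 CPM (log2 fold change 0.99 ± 0.29, adjusted p = 0.015). *hdac2.S* lost its call without TSA library b (adjusted p = 0.11). With IBET *hdac2.L* had 5.49 and 4.62 CPM against 3.34 and 2.2 CPM and missed the threshold (log2 fold change 0.88 ± 0.34, adjusted p = 0.059). *hdac2.S* was not called either, with 1.93 and 2.63 CPM against 1.95 and 1.24 CPM and overlapping groups (log2 fold change 0.55 ± 0.41, adjusted p = 0.29). Neither copy was called at stage 9 with either inhibitor. TSA explants had 19.1 and 11.1 CPM against 18.1 and 11 CPM of *hdac2.L* (0.01) and 8.39 and 6.55 CPM against 7.72 and 8.16 CPM of *hdac2.S* (-0.13). IBET explants had 19.6 and 10.9 CPM against 15.7 and 9.33 CPM of *hdac2.L* (0.23) and 8.66 and 5.1 CPM against 5.53 and 4.17 CPM of *hdac2.S* (0.45). With IBET from stage 9 neither was called at stage 13: *hdac2.L* had 4.93, 8.54 and 6.09 CPM against 4.6, 7.77 and 8.78 CPM in uninjected (-0.05) and 6.56, 5.92 and 6.43 CPM against 6.19, 12 and 9.83 CPM in Wnt/Chrd explants (-0.59). *hdac2.S* had 1.55, 1.95 and 1.77 CPM against 1.18, 1.14 and 1.85 CPM in uninjected (0.41) and 1.63, 1.4 and 2.33 CPM against 0.755, 2.02 and 3.7 CPM in Wnt/Chrd explants (-0.31). At stage 17 *hdac2.L* was higher with IBET in both backgrounds, at 9.48, 7.56 and 10.5 CPM against 2.35, 6.28 and 3.52 CPM in uninjected explants (log2 fold change 1.22 ± 0.42, adjusted p = 0.041). It had 9.05, 9.48 and 11.6 CPM against 4.35, 5.79 and 7.14 CPM in Wnt/Chrd explants (log2 fold change 0.89 ± 0.29, adjusted p = 0.033). In uninjected explants the call was lost in 5 of 6 fits that left out 1 library, all but that without vehicle library b (adjusted p up to 0.13). In Wnt/Chrd explants it was lost in 4 of 6 fits that left out 1 library, all but those without vehicle library c or IBET library a (adjusted p up to 0.11). *hdac2.S* was not called at stage 17, with 1.86, 1.17 and 1.59 CPM against 1.68, 3.05 and 2.89 CPM in uninjected (-0.69) and 1.83, 1.08 and 2.19 CPM against 0.917, 1.58 and 2.07 CPM in Wnt/Chrd explants (0.24). Of the other class I genes, *hdac3.S* was lower with IBET at stage 13 (-0.80 from the 2-cell stage and -1.66 from stage 9 in uninjected explants) and at -0.02 with TSA. *hdac8.L* was higher with both inhibitors given from the 2-cell stage (0.50 with TSA and 0.79 with IBET). With TSA the call of *hdac8.L* was lost without vehicle library a or TSA library b (adjusted p up to 0.095).

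Class IIa held the largest rises with TSA. *hdac5.L* had 4.99 and 3.09 CPM against 0.496 and 0.286 CPM in vehicle explants at stage 13 (log2 fold change 3.35 ± 0.42, adjusted p = 0.0002), from 187 reads in TSA and 18 in vehicle libraries. *hdac4.L* had 9.79 and 12.41 CPM against 2.15 and 2.43 CPM (log2 fold change 2.28 ± 0.24, adjusted p = 7.3e-05). Both transcripts fell between stages 9 and 13 in the vehicle explants of this series, whose stage 13 libraries serve both comparisons. In TSA explants *hdac5.L* stood near its stage 9 vehicle level of 4.24 and 3.14 CPM and *hdac4.L* between that of stage 9 (22.1 and 19.6 CPM) and that of stage 13. The sum of maternal oocyte rows in TSA explants, 59.7 to 66.7 CPM, also lay between those of vehicle explants at stage 9 and stage 13, and its part in these levels was not tested. *hdac5.S* and *hdac7.S* were higher too, at 1.38 and 1.32, whereas *hdac4.S* was at -0.21 and not called. *hdac5.S* lost its call in 3 of 4 fits that left out 1 library, all but that without vehicle library a (adjusted p up to 0.15). With IBET from the 2-cell stage *hdac5.L* had 2.24 and 1.09 CPM against 0.488 and 0.275 CPM (log2 fold change 2.102 ± 0.60, adjusted p = 0.022). *hdac5.L* lost its call without vehicle library b or IBET library a (adjusted p up to 0.17). *hdac7.S* had 3.17 and 3.48 CPM against 1.67 and 1.17 CPM (log2 fold change 1.25 ± 0.37, adjusted p = 0.025). *hdac7.S* lost its call in 3 of 4 fits that left out 1 library, all but that without vehicle library a (adjusted p up to 0.12). IBET from stage 9 gave *hdac5.L* at 0.676, 2.45 and 1.72 CPM against 0.481, 0.4 and 0.198 CPM in uninjected explants (log2 fold change 2.19 ± 0.63, adjusted p = 0.021). *hdac5.L* lost its call in 5 of 6 fits that left out 1 library, all but that without IBET library a (adjusted p up to 0.091). *hdac4.L* was not called with IBET in any of the comparisons with vehicle (0.71 from the 2-cell stage and 0.45 from stage 9 at stage 13). *hdac7.L* was lower with IBET at stage 17 in both backgrounds (-0.84 in uninjected and -0.91 in Wnt/Chrd explants). In uninjected explants its call was lost in 5 of 6 fits that left out 1 library, all but that without IBET library c (adjusted p up to 0.095). In Wnt/Chrd explants it was lost in 4 of 6 fits that left out 1 library, all but those without vehicle library c or IBET library c (adjusted p up to 0.1).

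*hdac6.L*, the class IIb deacetylase of tubulin, was lower with IBET in all 5 comparisons at stages 13 and 17 and with TSA at stage 13. Its log2 fold changes were -0.94 with IBET from the 2-cell stage, -0.88 and -1.27 at stage 13 in uninjected and Wnt/Chrd explants, -0.80 and -0.80 at stage 17, and -0.72 with TSA. The size of the TSA change depends on the scaling. With library totals the median of all genes moved by 0.60 in that comparison, though the sign for *hdac6.L* did not turn. At stage 13 Wnt/Chrd explants with IBET had 49.7, 44.6 and 35.8 CPM against 114, 79 and 120.3 CPM (log2 fold change -1.27 ± 0.32, adjusted p = 0.033). *hdac6.L* lost its call in 5 of 6 fits that left out 1 library, all but that without IBET library a (adjusted p up to 0.14). In uninjected explants the call of *hdac6.L* was lost without IBET library c (adjusted p = 0.065) at stage 13. At stage 17 it was lost without vehicle library a, vehicle library b or IBET library c (adjusted p up to 0.069). *hdac10.L* was lower with TSA (-1.28) and at -0.19, not called, with IBET from the 2-cell stage. With IBET from stage 9 it was at 0.87 and 1.21 at stage 13 in uninjected and Wnt/Chrd explants, neither called. At stage 17 it was at 0.61, not called, in uninjected and at 0.72, called, in Wnt/Chrd explants. Every IBET library lay above every vehicle library there, except in uninjected explants at stage 17.

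Among the sirtuins *sirt7.L*, a nucleolar deacetylase of H3, was lower with every inhibitor schedule at stage 13. It had 14.8 and 15.6 CPM with TSA against 62.6 and 73.6 CPM (log2 fold change -2.16 ± 0.14, adjusted p = 5.6e-06). It had 21.1 and 20.02 CPM with IBET from the 2-cell stage against 60.4 and 62.2 CPM (log2 fold change -1.55 ± 0.14, adjusted p = 0.00031). With IBET from stage 9 it had 12.44, 9.92 and 10.8 CPM against 72.8, 74.7 and 77.4 CPM (log2 fold change -2.69 ± 0.26, adjusted p = 0.00014). In Wnt/Chrd explants it had 35.6, 7.77 and 12.2 CPM against 70.6, 75.2 and 87.1 CPM and lay just inside the threshold (log2 fold change -2.04 ± 0.59, adjusted p = 0.05, and 0.033 with the library letter as a block). *sirt7.L* lost its call in 5 of 6 fits that left out 1 library, all but that without IBET library a (adjusted p up to 0.17). No inhibitor library reached the vehicle libraries in these 4 comparisons, and library a of the Wnt/Chrd IBET group was the closest. *sirt1*, a nuclear deacetylase of histones and p53, was lower with TSA (-2.04 and -1.73 for the L and S copies) and not called with IBET at stage 13 (-0.56 and -0.39 from the 2-cell stage). *sirt2.S*, which acts mostly on tubulin and histone H4, was higher in 5 of the 6 comparisons at stages 13 and 17. At stage 17 it had 11.7, 39.4 and 9.23 CPM with IBET against 1.83, 9.37 and 3.35 CPM in uninjected explants (log2 fold change 2.13 ± 0.76, adjusted p = 0.048), with overlapping groups. Its call was lost without vehicle library a, vehicle library c or IBET library b (adjusted p up to 0.2). In Wnt/Chrd explants it had 11.3, 32 and 12 CPM against 1.75, 5.88 and 2.83 CPM (log2 fold change 2.49 ± 0.60, adjusted p = 0.0095), without overlap. *sirt6.S* had 31.8, 35.8 and 42.2 CPM with IBET against 7.95, 6.67 and 7.54 CPM in uninjected explants at stage 17 (log2 fold change 2.35 ± 0.26, adjusted p = 0.00027). The same vehicle libraries were those in which *sirt6.S* was lower than at stage 13 and lower than in Wnt/Chrd explants. At stage 13 the other copy, *sirt6.L*, was lower with IBET from stage 9 in uninjected explants, with 1.89, 1.82 and 2.91 CPM against 8.18, 7.2 and 9.77 CPM (log2 fold change -1.85 ± 0.37, adjusted p = 0.0043). There *sirt6.S* had 24.7, 10.4 and 16.2 CPM against 13.6, 22.9 and 22.1 CPM, with overlapping groups. At stage 17 *sirt6.L* had 3.93, 5.06 and 6.26 CPM against 7.95, 5.92 and 4.65 CPM in uninjected explants, which overlapped too. The mitochondrial desuccinylase gene *sirt5.L* had 19.5, 45.1 and 42.2 CPM with IBET against 7.39, 17.6 and 16.6 CPM in uninjected explants at stage 17 (log2 fold change 1.41 ± 0.46, adjusted p = 0.034). *sirt5.L* lost its call in 5 of 6 fits that left out 1 library, all but that without IBET library a (adjusted p up to 0.097).

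The effects of IBET and TSA at stage 13 were compared by the test of their difference. Of 13 acetyltransferases 9 had a higher IBET than TSA effect and none a lower one (median difference 1.58). Of 24 deacetylases 4 had a higher and 2 a lower one (median -0.03), where 26.4% of all genes were called with a median of 0.01. How this share divides into higher and lower is not given, and the counts of members were not compared with it by a test. With library totals the median of all genes moved by -0.47, and 8 and 0 acetyltransferases and 1 and 6 deacetylases were called. The difference was largest for GCN5, 2.17 ± 0.26 for *kat2a.S* (adjusted p = 0.0003) and 1.75 for *kat2a.L* (adjusted p = 0.00069), followed by *kat6a.S* (1.66, adjusted p = 0.00044). Both *ep300* copies were among the 9, at 1.60 and 1.58. Of the deacetylases *hdac4.L* had the lower IBET effect (-1.60, adjusted p = 0.018), and *sirt1.L* and *sirt1.S* the higher one (1.44 and 1.30, adjusted p = 0.016 and 0.024). The other deacetylases called were *hdac1.S* and *hdac10.L* with a higher IBET effect (0.62 and 1.06) and *hdac3.S* with a lower one (-0.81). *hdac3.S* lost its call without IBET library a, TSA vehicle library b or TSA library b (adjusted p up to 0.071). The call of *hdac4.L* was lost without vehicle library a of either series, IBET library a or TSA library b (adjusted p up to 0.08). That of *sirt1.L* was lost without TSA vehicle library b or TSA library b (up to 0.058), and that of *sirt1.S* without IBET vehicle library a, IBET library b, TSA vehicle library b or TSA library a (up to 0.097). The inhibitors were given at doses of their own, so the size of the difference is that of these 2 treatments. Their vehicle groups differed in mesoderm rows, at 95.4 to 109 CPM in the IBET series and 3.02 to 3.81 CPM in the TSA series. The part of this in the differences was not tested.

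Direction to neural crest was examined by comparing Wnt/Chrd with uninjected explants without inhibitor. At stage 9 no member was called (edgeR, none of 36, none at an unadjusted p under 0.05, none by DESeq2), where 0.0244% of all genes were. At stage 13 none of 33 was called either (1 at an unadjusted p under 0.05, none by DESeq2), where 12% of all genes were. With the library letter as a block 1 member was higher and 2 were lower (25.2% of all genes). At stage 17, 8 of 23 deacetylases were higher in Wnt/Chrd explants (*hdac1.L*, *hdac1.S*, *hdac4.L*, *hdac7.S*, *hdac9.S*, *sirt1.S*, *sirt5.S* and *sirt6.S*) and *hdac4.S* was lower, with a median of 0.49, where 41.2% of all genes were called with a median of 0.01. None of 13 acetyltransferases was called by edgeR (2 at an unadjusted p under 0.05, none by DESeq2; median 0.27). Under library totals, which moved the median of all genes by 0.24, 11 deacetylases and 1 acetyltransferase were higher and none lower. With the library letter as a block 12 members were higher and 4 lower (56.7% of all genes). The largest rises were those of 3 single class IIa copies, and the class did not rise as a whole. *hdac4.S* was lower. *hdac7.L*, not called, had 24.8, 33.5 and 23 CPM in Wnt/Chrd against 36.9, 30 and 29.3 CPM in uninjected explants. The share of all genes that were higher is not given, so the count of members was not compared with it. The uninjected libraries of stage 17 are also those compared with stage 13 and with IBET. *hdac9.S* had 1.96, 0.633 and 1.71 CPM in Wnt/Chrd explants, while no read was counted in the uninjected libraries. The 101 reads against a floor of 3 reads over the group make it at least 29-fold higher (adjusted p = 0.0033). *hdac7.S* had 36.6, 17.9 and 7.37 CPM against 2.45, 3.76 and 1.76 CPM (log2 fold change 2.94 ± 0.59, adjusted p = 0.0061). *hdac4.L* had 5.86, 7.1 and 5.84 CPM against 2.14, 1.64 and 1.19 CPM (log2 fold change 1.91 ± 0.32, adjusted p = 0.0026). No library overlapped. Single libraries stood apart for *hdac7.S* at earlier stages. Library a of the Wnt/Chrd vehicle group at stage 13 had 16.7 CPM, where libraries b and c had 0.843 and 0.749 CPM. At stage 9 library c had 6.36 CPM in uninjected explants, where a and b had 0.209 and 0.116 CPM. Library c of Wnt/Chrd explants had 5.49 CPM at stage 9, where a and b had 0.155 and 0.137 CPM. The neural crest rows moved with these genes at stage 17 (2440.0 to 3480.0 CPM in Wnt/Chrd against 99 to 174 CPM in uninjected explants), and their part in the result was not tested.

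Both *hdac9.S* and *hdac7.S* were lower with IBET in Wnt/Chrd explants at stage 17, in a comparison that shares its vehicle libraries with the one before. *hdac9.S* was counted 1 time with IBET and 101 times in vehicle explants, a ratio of 0.011 (exact 95% interval 0.000277 to 0.063), with 0, 0 and 0.0487 CPM against 1.96, 0.633 and 1.71 CPM. *hdac7.S* had 5.16, 2.26 and 0.633 CPM against 36.6, 17.9 and 7.37 CPM (log2 fold change -2.86 ± 0.77, adjusted p = 0.016), without overlap. *hdac7.S* lost its call without vehicle library a or IBET library b (adjusted p up to 0.06). Neural crest rows summed to 62.5 to 94.2 CPM with IBET against 2440.0 to 3480.0 CPM in vehicle explants. The IBET effect in Wnt/Chrd explants differed from that in uninjected explants at stage 17 for 3 of 24 deacetylases, all lower, and for none of 13 acetyltransferases (edgeR, none at an unadjusted p under 0.05, none by DESeq2), where 12.9% of all genes were called. The difference was -1.91 ± 0.48 for *hdac4.L* (adjusted p = 0.021). IBET explants had 4.17, 3.44 and 2.82 CPM against 5.86, 7.1 and 5.84 CPM of vehicle in Wnt/Chrd. They had 2.92, 4.78 and 2.67 CPM against 2.14, 1.64 and 1.19 CPM in uninjected explants. In these libraries IBET values were lower in Wnt/Chrd and higher in uninjected explants, neither change being called on its own (adjusted p = 0.056, 0.043 with the library letter as a block, and 0.07). For *sirt6.S* it was -0.96 (adjusted p = 0.031), with IBET and vehicle levels of 50.1, 41.6 and 40.7 CPM and 16.9, 18.2 and 17.3 CPM in Wnt/Chrd, and 31.8, 35.8 and 42.2 CPM and 7.95, 6.67 and 7.54 CPM in uninjected explants. *hdac9.S* was also called (adjusted p = 0.014), on 1 and 101 reads in Wnt/Chrd and 5 and 0 reads in uninjected IBET and vehicle explants. With the library letter as a block 1 member had a higher and 6 a lower effect (20.1% of all genes). For *hdac4.L* the call was lost without uninjected vehicle library c, Wnt/Chrd vehicle library b or Wnt/Chrd IBET library c (adjusted p up to 0.065). For *sirt6.S* the call was lost in 9 of 12 fits that left out 1 library, all but those without uninjected IBET library a, uninjected IBET library b or Wnt/Chrd IBET library a (adjusted p up to 0.089), and for *hdac9.S* the call was lost without uninjected IBET library c (adjusted p = 0.1). Without uninjected vehicle library c, uninjected IBET library c, Wnt/Chrd vehicle library b or Wnt/Chrd IBET library c, 1 member was called.

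How far the homeologs of a symbol were called together differed between comparisons. With TSA at stage 13, 8 of 13 testable pairs had both copies called in the same direction (*crebbp*, *ep300*, *hdac2*, *hdac5*, *kat2a*, *kat6a*, *kat7* and *sirt1*), 3 had 1 copy called and none had opposite calls, where 72.7% of all genes were called. In the vehicle explants of the TSA series 12 of 14 pairs had both copies called the same way between stages 9 and 13 (78.0% of all genes called). In the other stage 13 against stage 9 comparisons 6 of 13 pairs each did (73.6% of all genes in the IBET vehicle and 71.3% in the uninjected series). With IBET fewer pairs were called alike: 2 of 13 from the 2-cell stage at stage 13 (*kat2a* and *kat7*, with 5 pairs in which 1 copy was called), 1 of 12 in uninjected explants at stage 13 (*kat2a*), and 1 of 12 each at stage 17 in uninjected (*hdac1*) and Wnt/Chrd explants (*hdac7*). Fewer of all genes were called there too, at 56.7%, 48.1%, 47.8% and 50.1% in the same order. These shares are of single genes, and pairs among all genes were not counted. Both copies had the same sign, called or not, in 11 of 13 pairs with TSA at stage 13 and in 4 of 12 with IBET in uninjected explants at stage 17. Opposite calls were found for 2 symbols. *sirt5.L* was higher and *sirt5.S* lower with IBET from the 2-cell stage at stage 13 (0.64 and -0.61) and in Wnt/Chrd explants at stage 17 (1.05 and -1.43). At stage 13 the call of *sirt5.L* was lost without vehicle library a or IBET library b (adjusted p up to 0.082). That of *sirt5.S* was lost in each of the 4 fits that left out 1 library (adjusted p up to 0.2). At stage 17 the call of *sirt5.L* was lost without vehicle library a, IBET library b or IBET library c (adjusted p up to 0.092). The L copy gave 87.3% ± 0.143 of *sirt5* reads with IBET against 74.2% ± 1.5 in vehicle explants (SD, n = 2 each), and 79.7% ± 1.91 against 40.6% ± 8.5 in Wnt/Chrd explants at stage 17 (n = 3 each). *hdac4.L* was higher and *hdac4.S* lower in Wnt/Chrd than in uninjected explants at stage 17 (1.91 and -0.67), where the L copy gave 46% ± 3.13 of *hdac4* reads against 12.36% ± 2.2. *hdac4.S* lost its call in each of the 6 fits that left out 1 library (adjusted p up to 0.11). In TSA explants the same share was 74.2% ± 1.88, against 34.6% ± 8.31 in vehicle explants at stage 13. For *hdac7* the L share was 60.4% ± 18.2 in Wnt/Chrd and 92.3% ± 3 in uninjected explants at stage 17. The *ep300* share was 71.9% ± 1.92 with TSA against 68.1% ± 2.47 at stage 13. Reads that aligned to more than 1 place were left out of the counts, so the share of a pair also depends on how far its copies differ in sequence.

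The partners of these enzymes were followed in lists of subunits. With TSA at stage 13, 11 of 86 tested subunits of acetyltransferase complexes were higher and 65 lower (median -1.02), beside 72.7% of all genes called. Leading them were the Tip60 complex subunits *epc1.L* (-3.86), *epc1.S* (-3.79) and *epc2.S* (-3.69). Of 70 subunits of deacetylase complexes 20 were higher and 36 lower (median -0.49), and the largest changes were rises of the NuRD genes *mbd2.L* (6.51), *mbd2.S* (3.41) and *chd5.L* (3.46). The partner lists were counted under TMM alone. With library totals the median of all genes moved by 0.60 in this comparison, so the direction of small changes depends on the scaling. Of 12 acetyltransferases outside the name rule 1 was higher and 9 lower, among them the nuclear receptor coactivators *ncoa2.L* (-2.78) and *ncoa3.S* (-1.87) and *hat1.S* (-1.30), which acetylates new histones. Genes that supply acetyl-CoA went up in 7 and down in 3 of 10 cases: *acly.L*, the citrate lyase that makes nuclear and cytosolic acetyl-CoA, was at 1.45 and *slc25a1.L*, which exports citrate from mitochondria, at -0.93. With IBET from the 2-cell stage the same lists gave 10 and 33 of 86, 16 and 17 of 67, 1 and 5 of 12, and 7 and 1 of 10, higher and lower, beside 56.7% of all genes called. *epc1.L* and *epc1.S* were again among the lowest (-2.39 and -2.36), the TIP60-p400 subunit *ep400.L* was higher (2.58). *ing1.S* (3.75), of the Sin3 complex, led the rises of deacetylase partners. *acly.L* and *slc25a1.L* kept their directions with IBET (0.97 and -1.35). In Wnt/Chrd against uninjected explants at stage 17, 24 of 67 deacetylase subunits were higher and 3 lower, and 21 and 6 of 85 acetyltransferase subunits, beside 41.2% of all genes.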

How the data were processed

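RNA from 46 libraries of animal pole explants in 18 groups was sequenced from directional libraries, and the authors deposited raw read counts per gene. Per the submitters' processing notes and the methods, reads were trimmed with fastp 0.23.2, aligned to the *X. laevis* genome 9.2 with STAR 2.6.0 and counted with HTSeq 1.99.2. Neither the gene annotation nor whether counting took strand into account is given in the sources used here. The deposited counts were used as they were; rows that name no gene were left out of library sizes and tests (7.94% to 21.6% of reads in no feature, 8.97% to 23.6% not aligned uniquely and 0.189% to 0.690% ambiguous). Tables of the authors' own comparisons, with fold changes and p-values from DESeq2, were not used. Samples were grouped by their labels and matched to count columns by name.

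Counts were tested with edgeR 4.0.16 in R 4.3.3 (filterByExpr with a minimum count of 10 and a minimum total of 15, TMM, quasi-likelihood F-test, Benjamini-Hochberg adjustment over all genes tested, threshold 0.05), each comparison on its own groups, and differences between effects on 4 groups with an interaction contrast. The standard error of a fold change was its size divided by the square root of F. Levels are CPM with TMM factors over all 46 libraries. For transcripts with 3 reads or fewer in a group, exact 95% intervals of the ratio of summed reads were given, with a floor of 3 reads. The scripts were tested on simulated data.

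Alternatives were DESeq2 size factors, library totals, no filter on low counts, the DESeq2 test (1.42.0), leaving out each library, and the column letter as a block. In every comparison of groups with 3 libraries each, libraries with the same letter deviated together (correlations between 0.200 and 0.869 over all genes tested), so the letters were taken to pair libraries there. Only the fits with the block use this pairing. The main fits and those that left out 1 library do not. The letters come from the columns and are not the replicate numbers of the labels. No 2 libraries of a group agreed within sampling noise (lowest chi-square per degree of freedom 8.15).

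The members and the lists of partners were chosen with earlier results of these data known. Values in every library are given for hdac1, hdac2, ep300 and crebbp in the comparisons with vehicle and for up to 3 called deacetylases and 3 called acetyltransferases with the largest fold change in each comparison of groups. Up to 3 called genes of a partner list were eligible to be named. Gene names were matched to RefSeq (Xenopus_laevis_v10.1), whose build differs from that of the counts, so no coordinates or sequences were used.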

Additional observations from a re-analysis of the deposited data

Results flagged for a closer look

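The effect of IBET at stage 17 differed between Wnt/Chrd and uninjected explants for 3 members by edgeR's test of the difference itself. For *hdac4.L* the effect in Wnt/Chrd minus that in uninjected explants was -1.907 on the log2 scale (standard error 0.48, adjusted p = 0.021), and the call was lost without uninjected vehicle library c, Wnt/Chrd vehicle library b or Wnt/Chrd IBET library c (adjusted p up to 0.065). For *sirt6.S* it was -0.96 (standard error 0.26, adjusted p = 0.031), with a rise under IBET in both kinds of explant, and the call was lost in 9 of 12 fits that left out 1 library (adjusted p up to 0.089). For *hdac9.S* the fitted difference was -9.947 (standard error 2.16, adjusted p = 0.014); it rests on 1 and 101 reads with IBET and vehicle in Wnt/Chrd explants and 5 and 0 reads in uninjected explants, so that its size depends on the prior count, and the call was lost without uninjected IBET library c (adjusted p = 0.1). No explanation was tested.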

How the results depend on the processing

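The numbers of members called stayed within 1.5 times their value in 17 of 19 comparisons with the DESeq2 test, 17 of 19 without the filter on low counts, 12 of 19 with the replicate block and all 19 with DESeq2 size factors and with library totals. The DESeq2 test called 2 members (against 1) for IBET at stage 9 and 7 (against 2) for IBET in Wnt/Chrd explants at stage 13. Without the filter 2 members (against 1) were called for IBET at stage 9, and 1 (against 3) for the difference of the IBET effect between Wnt/Chrd and uninjected explants at stage 17. With the replicate block 10 members (against 2) were called for IBET in Wnt/Chrd explants at stage 13, 3 (against 0) and 16 (against 9) for Wnt/Chrd against uninjected explants at stages 13 and 17, 23 (against 15) for stage 17 against stage 13, and 7 (against 3) for the difference of the IBET effect at stage 17. In the series with 2 libraries per group the block gave 6 (against 2) for TSA and 4 (against 1) for IBET at stage 9. Same-letter libraries deviated together there too (correlations 0.216 to 0.761), with 2 pairs and no label for the letters. The main fits of all comparisons were unpaired, and so were the fits that left out 1 library. Calls, missing calls and lost calls given without a block thus leave the pairing of libraries by letter out of account. The block moved no other count by over 1.5 times. The cause of these changes was not tested.

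With 1 library left out the numbers called ranged from 1 to 2 for TSA at stage 9, 22 to 28 for TSA at stage 13, 1 to 2 for IBET at stage 9 and 12 to 17 for IBET from the 2-cell stage at stage 13. For IBET from stage 9 they ranged from 7 to 14 and 2 to 8 in uninjected explants at stages 13 and 17, and from 0 to 10 and 6 to 15 in Wnt/Chrd explants. For Wnt/Chrd against uninjected explants at stage 17 the range was 8 to 9. Between stages 13 and 9 it was 23 to 26 (IBET vehicle), 31 to 33 (TSA vehicle) and 23 to 26 (uninjected), and between stages 17 and 13 it was 7 to 16. The difference of IBET and TSA at stage 13 ranged from 11 to 15 and that of IBET in Wnt/Chrd and uninjected explants at stage 17 from 1 to 3, and the comparisons that called no member called none in any of these fits. Of 81 pairs of a named gene and a comparison that were called, 51 were called in every such fit.

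Signs turned mostly for changes near 0. With library totals *hdac1.L* and *hdac1.S* were at 0.383 and 0.292 (TSA, stage 13), both called, and *hdac2.L* at 0.083 (IBET, uninjected, stage 13). Without the filter *hdac1.S* was at -0.001 (TSA, stage 9) and *crebbp.S* at -0.002 (IBET, Wnt/Chrd, stage 17). With 1 library left out the log2 fold change with TSA at stage 9 ranged from -0.006 to 0.041 for *hdac1.L*, -0.028 to 0.049 for *hdac1.S*, -0.43 to 0.434 for *hdac2.L*, -0.309 to 0.037 for *hdac2.S*, -0.173 to 0.237 for *crebbp.L* and -0.197 to 0.035 for *crebbp.S*. With IBET at stage 9 it ranged from -0.058 to 0.118 for *hdac1.L*, -0.051 to 0.162 for *hdac1.S*, -0.281 to 0.672 for *hdac2.L*, -0.012 to 0.799 for *hdac2.S* and -0.179 to 0.096 for *crebbp.L*. With IBET from stage 9 it ranged from -0.342 to 0.117 for *hdac2.L* and -0.189 to 0.396 for *ep300.L* in uninjected explants at stage 13, from -0.698 to 0.339 for *hdac2.S* and -0.354 to 0.142 for *ep300.L* in Wnt/Chrd explants at stage 13, from -0.032 to 0.576 for *crebbp.S* in uninjected explants at stage 17, and in Wnt/Chrd explants at stage 17 from -0.032 to 0.173 for *hdac1.S*, -0.045 to 0.505 for *hdac2.S* and -0.37 to 0.387 for *crebbp.S*. None of these genes was called in the fits in which its sign turned, but for the copies of *hdac1* with library totals.

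Depth limits the rare transcripts *kat2b.S*, *hdac5.L*, *hdac5.S*, *hdac7.S*, *hdac9.L* and *hdac9.S*, which had under 30 reads in at least 1 of the 18 groups. A left-out library can leave a group with 1 library, whose spread is then assumed to be that of the other libraries.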
